A study of Mus musculus with 8 samples.

Results

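The genes described here are 10 transcriptional targets and partners of YAP, among them 3 CCN matricellular genes: Ccn1, Ccn2, Ccn5, Ankrd1, Amotl1, Amotl2, Lats2, Tead1, Axl and Crim1. They were taken by gene symbol from the array's platform annotation. Of the 10 genes, 9 had a probe, with 12 probes in all among the 25697 on the array. Amotl1 had none and was not analysed here. The probes for Lats2 and Tead1 were not above background on any array, so 7 genes (10 probes) could be tested, out of 9340 genes in the whole data set. Expression was read from 8 Illumina bead arrays. All held RNA of fibroblasts grown from C57BL/6J mouse embryos and cultured in DMEM with fetal bovine serum. There were 4 groups of 2 arrays: staggerer cells given doxorubicin for 12 h, untreated staggerer cells, wild type cells given doxorubicin for 12 h, and untreated wild type cells. Staggerer is a mouse mutation that deletes part of Rora, which encodes a nuclear receptor (RORα). Doxorubicin is an anticancer drug that traps topoisomerase II on DNA and causes double-strand breaks. Its dose is not given in the sources used here. Whether both arrays of a group stand for separate cultures is not stated, nor is the number of embryos behind each genotype. The p-values below therefore measure only the spread between arrays, and a difference between the genotypes cannot be told apart from one between the cell isolates.

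YAP and its relative TAZ are coactivators that carry no DNA-binding domain of their own. They reach DNA through the TEAD transcription factors and are held out of the nucleus when the Hippo kinases, LATS1 and LATS2 among them, phosphorylate them. In fibroblasts the coactivators respond to cell spreading, stiffness of the substrate and actin tension, and Ccn1, Ccn2 and Ankrd1 are the target genes most used to read them out. CCN proteins are secreted into the matrix, where they bind integrins, heparan sulphate proteoglycans and growth factors rather than serving as structural fibres. Ccn1 (formerly Cyr61) and Ccn2 (formerly Ctgf) are immediate early genes of adhesion and wound repair. Ccn5 (formerly Wisp2) encodes a CCN protein without the C-terminal cysteine knot domain, and is linked to growth arrest in smooth muscle cells.

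The consensus site of TEAD factors contains the letters GGAATG, or CATTCC when read on the other strand. Promoter sequences, the 250 bases before the annotated start, were given for 7 of the 10 genes in RefSeq (build GRCm38.p6, 8 windows, since Lats2 has 2). GGAATG on either strand lay in 5 of the 7 genes' promoters, those of Ccn1, Ankrd1, Amotl2, Axl and Crim1, and in none of those of Amotl1 and Lats2. Of all 32851 promoter windows of that length, 12.6% held it. The 5 sequences are shown because they set the 3 genes with the letters that fell in both genotypes (Ccn1, Ankrd1, Amotl2) beside 2 with the letters that did not pass as lower (Axl, Crim1). Capitals mark GGAATG or CATTCC and, in Ccn1 alone, TATAAA.
Ccn1, chr3:145649986-145650235, minus strand: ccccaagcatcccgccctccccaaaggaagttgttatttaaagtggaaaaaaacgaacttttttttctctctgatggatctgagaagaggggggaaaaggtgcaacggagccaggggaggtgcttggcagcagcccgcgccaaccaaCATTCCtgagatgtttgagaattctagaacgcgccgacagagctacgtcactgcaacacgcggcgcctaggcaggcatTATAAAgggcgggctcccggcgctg
Ankrd1, chr19:36119845-36120094, minus strand: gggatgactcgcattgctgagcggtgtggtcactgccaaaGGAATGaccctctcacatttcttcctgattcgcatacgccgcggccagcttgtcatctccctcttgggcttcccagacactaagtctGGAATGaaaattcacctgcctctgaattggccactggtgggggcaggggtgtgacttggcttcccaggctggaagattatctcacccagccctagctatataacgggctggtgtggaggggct
Amotl2, chr9:102717554-102717803, plus strand: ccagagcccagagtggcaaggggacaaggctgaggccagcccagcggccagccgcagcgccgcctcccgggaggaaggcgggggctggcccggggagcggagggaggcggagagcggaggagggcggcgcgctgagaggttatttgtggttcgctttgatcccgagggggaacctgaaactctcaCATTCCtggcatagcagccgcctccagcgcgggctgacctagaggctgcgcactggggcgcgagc
Axl, chr7:25788734-25788983, minus strand: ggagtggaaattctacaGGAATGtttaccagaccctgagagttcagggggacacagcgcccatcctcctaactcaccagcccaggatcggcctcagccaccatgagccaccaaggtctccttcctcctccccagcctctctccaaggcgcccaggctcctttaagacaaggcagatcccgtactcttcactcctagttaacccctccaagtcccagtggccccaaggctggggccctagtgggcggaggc
Crim1, chr17:78199998-78200247, plus strand: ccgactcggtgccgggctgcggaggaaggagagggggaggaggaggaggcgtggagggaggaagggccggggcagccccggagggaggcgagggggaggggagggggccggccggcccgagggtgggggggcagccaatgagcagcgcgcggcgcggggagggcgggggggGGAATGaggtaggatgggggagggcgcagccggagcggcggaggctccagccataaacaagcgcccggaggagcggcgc
The first base of the match lay 103 bases before the start in Ccn1, 65 in Amotl2, 79 in Crim1, 233 in Axl, and 210 and 123 in Ankrd1, the only one of the 5 with 2 copies. TATAAA, searched on both strands, lay 25 bases before the start of Ccn1, in 1 of 7 genes, against 12.4% of all windows. The letters of an AP-1 site (TGANTCA, both strands) and a CArG box, the site of SRF, were in 0 of 7 genes, against 6.75% and 1.47% of all windows. None of these motifs overlapped another in the 5 windows. These matches describe the letters of a short window and were not tested as binding sites.

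Levels are log2 intensities after background correction and quantile normalization, in which each array is given the same overall distribution. Rora, the mutated gene, was measured at 6.56 and 6.24 in staggerer cells with doxorubicin, where it was not above background, 6.58 and 6.56 in untreated staggerer cells, 7.99 and 7.92 in wild type cells with doxorubicin, and 7.72 and 8.08 in untreated wild type cells. Both staggerer groups lay below both wild type groups, with a log2 difference of -1.33 between the untreated groups (adjusted p = 0.00222 from limma). A second Rora probe was below background on all 8 arrays, and the place of either probe relative to the deletion is not given here. The number of probes above background was lowest in staggerer cells with doxorubicin, at 9576 and 9246, against 10942 to 11572 on the other 6 arrays. The summed level of 10 fibroblast markers stayed within 55216 and 70003 intensity units on all arrays, but single markers moved within that sum. Without treatment 1 of the 10 was higher in staggerer than in wild type cells and 3 were lower, where 13% of all genes differed. With doxorubicin 6 were higher and 2 lower, where 72.5% of all genes differed. Macrophage markers (7 with a probe) summed to 3224 and 3322 in staggerer cells with doxorubicin, 1551 and 1602 in untreated staggerer cells, 8552 to 9141 in wild type cells with doxorubicin and 7440 to 7529 in untreated wild type cells, and Ptprc was below background in every group. Epithelial and mesothelial markers (7 with a probe) summed to 546 to 630, 198 to 225, 2415 to 2603 and 2033 to 2089 in the same order, with Cdh1 below background in every group. Of 6 endothelial markers, Cdh5, Kdr, Pecam1 and Tie1 were below background in all groups, while Emcn was above it in both wild type groups alone. Without treatment Emcn was at least 2.64-fold lower in staggerer cells (fitted -2.24, adjusted p = 9.66e-05 for the fitted value). Of 7 striated muscle markers, Actc1, Myh6, Myl2 and Myod1 were below background in all groups. Des was above it in all, at 8.86 and 9.22 in staggerer cells with doxorubicin, 7.83 and 7.53 in untreated staggerer cells, 10.62 and 10.65 in wild type cells with doxorubicin, and 10.60 and 10.71 in untreated wild type cells. Nppa was above background in untreated staggerer cells and on 1 of 2 treated staggerer arrays. The marker shifts move with genotype and also with doxorubicin in staggerer cells. There 31.8% of all genes were called higher. So were 5 of 5 tested macrophage markers, 5 of 6 epithelial and mesothelial markers and 2 of 2 muscle markers (Des and Nppa). Wt1 is counted among these markers (fitted 0.54, adjusted p = 0.0152). It was below background in both staggerer groups, so no rise can be stated for it. The part of the marker shifts in the results was not tested. In RNA from a whole culture, fewer cells of a type and less RNA per cell cannot be told apart.

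After doxorubicin, most of the tested genes fell in both genotypes. In staggerer cells 5 of 7 fell, Crim1 rose and Axl did not pass the test (adjusted p under 0.05 over all 9340 genes), where 33.3% of all genes fell, 31.8% rose and 65% changed in either direction. In wild type cells 5 of 7 fell and 0 rose, against 30.5% and 26.4% of all genes and 56.9% in either direction. The 5 that fell were Ccn1, Ccn2, Ccn5, Ankrd1 and Amotl2 in both genotypes. The sizes ran from a 1.71-fold drop for Amotl2 in wild type cells to a 16-fold drop for Ccn1 in staggerer cells. The median log2 change over the 7 was -2.47 in staggerer cells and -1.61 in wild type cells, beside 0.02 and -0.09 over all genes. The size of the change differed between genotypes for 5 of the 7 genes, in a test of the difference itself (interaction). As 59.2% of all genes did so too, that count is not particular to these genes. The plots of levels and of fold changes show these values for each gene.

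**Figure D1:**
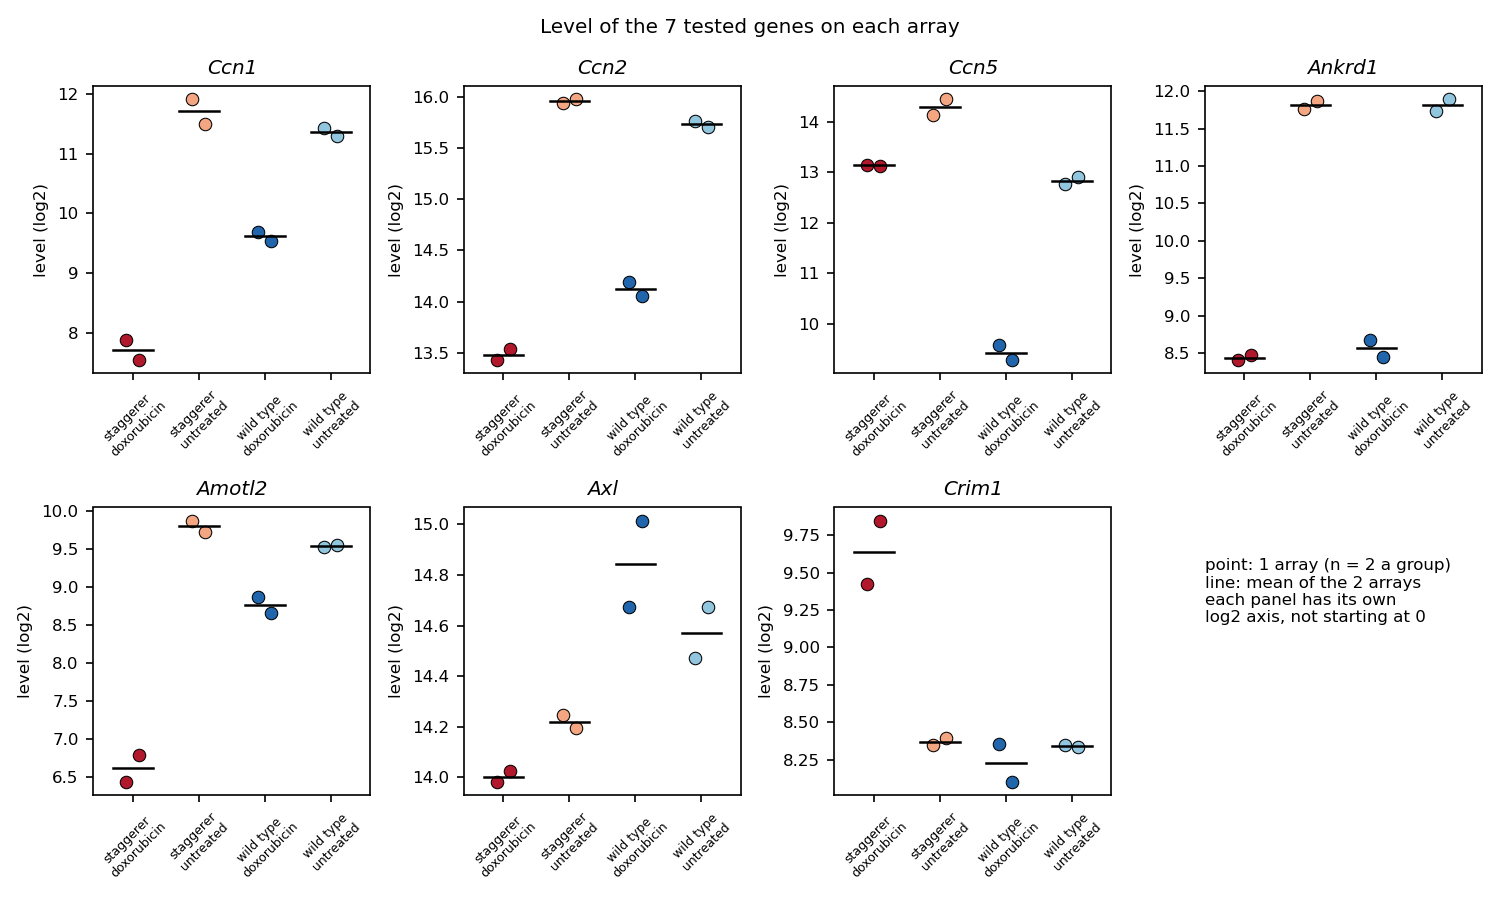
Level (log2, background corrected and quantile normalized) of the 7 tested genes on each array; points are single arrays, 2 a group, and lines are group means. Ccn1, Ccn2, Ccn5, Ankrd1 and Amotl2 lie lower with doxorubicin than without it in both genotypes, and the 2 staggerer arrays with doxorubicin lie highest of all 8 for Crim1.

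**Figure D2:**
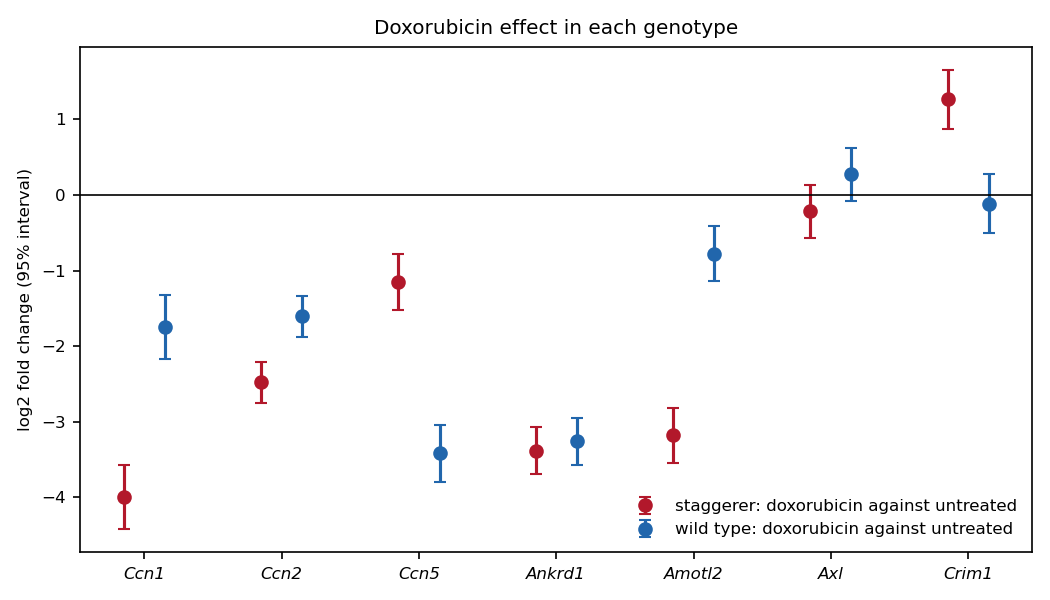
Log2 fold change of doxorubicin against untreated cells in staggerer and in wild type fibroblasts, with 95% intervals from limma. Ccn1 (-4.00 in staggerer, -1.75 in wild type) and Ccn5 (-1.15 in staggerer, -3.42 in wild type) show the difference between genotypes in opposite directions, and Ankrd1 (-3.38 and -3.26) is close to equal. The point for Amotl2 in staggerer is a fitted value, as the gene was below background there with doxorubicin.

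Ccn1, which encodes an integrin-binding matrix protein of the early adhesion and wound response, had the largest fitted fall of the 7 in staggerer cells, where that of Amotl2 is known only as a lower bound. Its level was 7.89 and 7.54 in staggerer cells with doxorubicin, 11.91 and 11.50 in untreated staggerer cells, 9.69 and 9.54 in wild type cells with doxorubicin, and 11.43 and 11.30 in untreated wild type cells. The treated arrays lay below the untreated ones in both genotypes, without overlap, and the treated staggerer arrays lay below the treated wild type arrays. The log2 change with doxorubicin was -4.00 ± 0.183 (SE, adjusted p = 9.72e-06) in staggerer cells, a 16-fold drop that ranked 3 from the lowest of the 9340 genes. In wild type cells it was -1.75 ± 0.183 (adjusted p = 0.00017), a 3.36-fold drop. The effect was larger in staggerer cells (interaction, staggerer minus wild type, -2.25 ± 0.259, 95% interval -2.85 to -1.64, adjusted p = 0.000399). In the deposited intensities, before any correction, Ccn1 read 290 and 258 in staggerer cells with doxorubicin and 4093 and 3054 in untreated staggerer cells, so its treated values came close to the 99th percentile of the control rows, which ran from 215.5 to 261 over the arrays. In untreated cells the genotypes were not separated by this probe (staggerer minus wild type 0.34 ± 0.183, adjusted p = 0.274). With doxorubicin the level in staggerer cells was 1.91 lower than in wild type cells (-1.91 ± 0.183, adjusted p = 6.13e-05).

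Ccn1 had 2 further probes, and all 3 fell with doxorubicin in both genotypes. The changes were -4.00, -4.46 and -3.33 in staggerer cells and -1.75, -1.78 and -1.43 in wild type cells, in a fit over 12362 probes, and the interaction passed the test for each (-2.25, -2.68 and -1.90). The probes disagreed on the genotypes. In untreated cells the third probe was at 10.27 and 9.90 in staggerer and 8.91 and 8.87 in wild type, a difference of 1.19 ± 0.179 (adjusted p = 0.00599), while the second gave 0.57 (adjusted p = 0.059) and the first did not pass. After doxorubicin the third probe gave a staggerer minus wild type difference of -0.71, against -1.91 and -2.12 for the other two, and it was below background on 1 of the 2 treated staggerer arrays. Which transcripts each probe reads is not given in the sources used here.

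**Figure D3:**
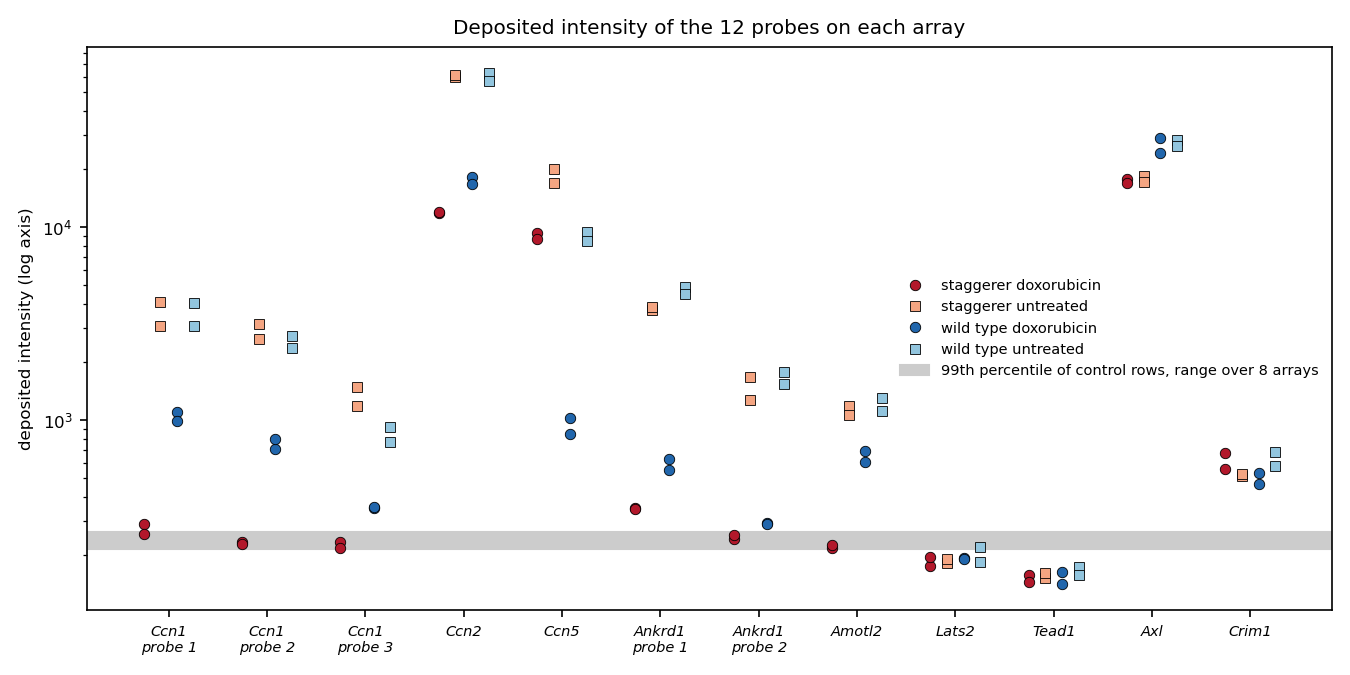
Deposited intensity (log axis) of the 12 probes on each of the 8 arrays, before any correction, with the range of the control rows' 99th percentile (215.5 to 261) in grey. Lats2 and Tead1 stay in or below the grey band in every group, and Ccn2 lies near the top of the scale in untreated cells. Ccn1, Amotl2 and the second Ankrd1 probe come down close to the band or into it in staggerer cells with doxorubicin.

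Ccn2 encodes the connective tissue growth factor, a matrix protein that acts with TGF-β in fibroblasts. Its level was 13.43 and 13.54 in staggerer cells with doxorubicin, 15.94 and 15.98 in untreated staggerer cells, 14.19 and 14.06 in wild type cells with doxorubicin, and 15.76 and 15.71 in untreated wild type cells. Every treated array lay below every untreated one, and the treated staggerer arrays lay lowest. Ccn2 fell 5.56-fold in staggerer cells (log2 change -2.47 ± 0.116, adjusted p = 1.03e-05) and 3.04-fold in wild type cells (-1.61 ± 0.116, adjusted p = 3.18e-05). The difference between these was -0.87 ± 0.164 (adjusted p = 0.00311), and it did not pass the test without between-array normalization (-0.57, adjusted p = 0.0569). With doxorubicin, staggerer cells were 0.64 below wild type cells (-0.64 ± 0.116, adjusted p = 0.00154), a call lost under median centring (-0.28, adjusted p = 0.0726). Untreated cells of the genotypes differed by 0.22 ± 0.116 (adjusted p = 0.258). The untreated signal was close to the top of each array: as a share of the array's brightest probe, Ccn2 was at 17.6% and 17.9% in staggerer cells with doxorubicin, 88.5% and 92% in untreated staggerer cells, 26.8% and 24% in wild type cells with doxorubicin, and 91% and 82.6% in untreated wild type cells. How far a limit of the scanner holds down the untreated values was not tested.

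Read from the brightest probe of each gene, Ccn5 was the 1 gene of the 7 that passed the test as higher in untreated staggerer cells, and it had the highest difference between the genotypes after doxorubicin. Its level was 13.15 and 13.13 in staggerer cells with doxorubicin, 14.14 and 14.45 in untreated staggerer cells, 9.57 and 9.27 in wild type cells with doxorubicin, and 12.76 and 12.91 in untreated wild type cells. The treated staggerer arrays lay above the untreated wild type arrays, and the treated wild type arrays lay far below all others. In the deposited intensities the first 2 of these groups overlapped, at 9311 and 8660 in staggerer cells with doxorubicin and 9445 and 8494 in untreated wild type cells. Doxorubicin lowered Ccn5 2.23-fold in staggerer cells (-1.15 ± 0.16, adjusted p = 0.000537). In wild type cells it fell 10.7-fold (-3.42 ± 0.16, adjusted p = 6.08e-06), which ranked 2 from the lowest of all genes. The interaction was 2.26 ± 0.226 (95% interval 1.74 to 2.79, adjusted p = 0.000251), opposite in sign to those of Ccn1 and Ccn2. Staggerer cells had 2.75-fold more Ccn5 signal than wild type cells when untreated (1.46 ± 0.16, adjusted p = 0.00127) and 13.2-fold more with doxorubicin (3.72 ± 0.16, adjusted p = 6.58e-06). The difference with doxorubicin ranked 14 from the highest of the 9340 genes.

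The 1 other CCN gene with a probe was Ccn4, a Wnt-induced matricellular gene, with 2 probes above background. On its brighter probe it was lower in staggerer than in wild type cells, by -1.30 (adjusted p = 0.000906) untreated and -0.95 (adjusted p = 0.000404) with doxorubicin, the opposite direction to Ccn5. On that probe it fell with doxorubicin in staggerer cells (-0.64, adjusted p = 0.00374) and in wild type cells (-0.996, adjusted p = 0.000537). The dimmer probe gave 0.55 (adjusted p = 0.0143) in staggerer cells, the opposite sign, and -0.85 (adjusted p = 0.0025) in wild type cells, so the direction in staggerer cells depends on the probe. For staggerer minus wild type the dimmer probe gave -1.43 (adjusted p = 0.00132) untreated and -0.03 (adjusted p = 0.874) with doxorubicin. The difference between treated genotypes thus also depends on the probe. The interaction was 0.35 (adjusted p = 0.14) on the brighter probe and 1.40 (adjusted p = 0.00137) on the dimmer.

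Ankrd1 encodes an ankyrin repeat protein of the nucleus and the sarcomere, and is a direct YAP target in many cell types. Its level was 8.40 and 8.47 in staggerer cells with doxorubicin, 11.77 and 11.87 in untreated staggerer cells, 8.67 and 8.44 in wild type cells with doxorubicin, and 11.73 and 11.90 in untreated wild type cells. The treated arrays of both genotypes lay together, as did the untreated arrays of both. The fall was 10.4-fold in staggerer cells (-3.38 ± 0.133, adjusted p = 7.23e-06) and 9.56-fold in wild type cells (-3.26 ± 0.133, adjusted p = 3.4e-06), where it ranked 3 from the lowest of all genes. The interaction was -0.12 ± 0.188, with a 95% interval of -0.56 to 0.32 (adjusted p = 0.591). A second probe gave -2.94 in staggerer cells and -3.14 in wild type cells, with an interaction of 0.20 (adjusted p = 0.573). On the brighter probe the genotypes differed without treatment by 0.00 ± 0.133 (95% interval -0.31 to 0.31, adjusted p = 0.995). With doxorubicin they differed by -0.12 ± 0.133 (95% interval -0.43 to 0.19, adjusted p = 0.432). The likeness of the genotypes after doxorubicin was not kept under other scalings. With median centring Ankrd1 was lower in treated staggerer than in treated wild type cells (-0.92, adjusted p = 0.000271) and the interaction was -0.84 (adjusted p = 0.00515), and the deposited intensities were 348 and 344 in staggerer cells with doxorubicin, against 625 and 547 in wild type cells with doxorubicin.

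Of the genes that restrain YAP or carry it to DNA, Amotl2 could be measured. Angiomotin-like proteins bind YAP in the cytoplasm and at junctions, and Amotl2 is itself a YAP target. Its level was 6.44 and 6.80 in staggerer cells with doxorubicin, where it was below background on both arrays, 9.87 and 9.72 in untreated staggerer cells, 8.86 and 8.65 in wild type cells with doxorubicin, and 9.52 and 9.55 in untreated wild type cells. The treated arrays lay below the untreated ones in each genotype, and the treated staggerer arrays lay far below the treated wild type arrays. With staggerer cells at their background limit, the fall with doxorubicin was at least 8.13-fold (adjusted p = 1.13e-05), and treated staggerer cells were at least 3.96-fold lower than treated wild type cells (adjusted p = 1.91e-05). This bound is the mean of the brighter group set against the lowest signal above background, or the gene's own signal where higher, on each array of the dimmer group. Here and wherever a fold is given as at least some size, the adjusted p is that of the fitted limma difference. It does not test the bound. In wild type cells Amotl2 fell 1.71-fold (-0.78 ± 0.155, adjusted p = 0.00394). The interaction was -2.40 ± 0.22 as fitted (adjusted p = 0.000208). Untreated cells differed by 0.26 ± 0.155 (adjusted p = 0.32). Lats2, a Hippo kinase and YAP target, read 174.6 to 220.7 in deposited intensity over the 8 arrays, with a detection p of 0.0754 or more, and Tead1, a DNA-binding partner of YAP, read 140.4 to 172.7, with a detection p of 0.499 or more. Neither probe was above background on any array, so no direction is given for them.

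Axl and Crim1, both listed in YAP target signatures, did not pass the test as lower in either genotype. Axl encodes the receptor tyrosine kinase for GAS6. Its level was 13.98 and 14.02 in staggerer cells with doxorubicin, 14.25 and 14.19 in untreated staggerer cells, 14.67 and 15.02 in wild type cells with doxorubicin, and 14.47 and 14.67 in untreated wild type cells. All 4 staggerer arrays lay below all 4 wild type arrays, while treated and untreated arrays were close within each genotype. The change with doxorubicin was -0.22 ± 0.149 (95% interval -0.56 to 0.13, adjusted p = 0.234) in staggerer cells and 0.27 ± 0.149 (95% interval -0.07 to 0.62, adjusted p = 0.156) in wild type cells, and neither sign held under every scaling (0.13 in staggerer cells with median centring and -0.034 in wild type cells without between-array normalization). Treated staggerer cells were 1.79-fold lower than treated wild type cells (-0.84 ± 0.149, adjusted p = 0.00138). Untreated staggerer cells were 0.35 lower than untreated wild type cells, which did not pass (-0.35 ± 0.149, adjusted p = 0.173). The Axl interaction was -0.49 ± 0.21 and did not pass (adjusted p = 0.0792). It was called without background correction (-0.49, adjusted p = 0.0212) and with a variance trend and robust fitting (adjusted p = 0.0126). Under median centring it was 0.052. The 0.27 in wild type cells also passed with the trend and robust fitting (adjusted p = 0.0414).

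Crim1 encodes a membrane protein with cysteine-rich repeats that binds bone morphogenetic proteins. Its level was 9.42 and 9.85 in staggerer cells with doxorubicin, 8.35 and 8.39 in untreated staggerer cells, 8.35 and 8.10 in wild type cells with doxorubicin, and 8.35 and 8.34 in untreated wild type cells. Both treated staggerer arrays lay above all others, and the other 3 groups lay together. Crim1 rose 2.4-fold with doxorubicin in staggerer cells (1.26 ± 0.167, adjusted p = 0.000428) and changed by -0.12 ± 0.167 in wild type cells (95% interval -0.50 to 0.27, adjusted p = 0.583). The interaction was 1.38 ± 0.235 (adjusted p = 0.00198). The rise was smaller before normalization. The deposited intensities were 560 and 677 in staggerer cells with doxorubicin, 510 and 527 in untreated staggerer cells, 533 and 463 in wild type cells with doxorubicin, and 686 and 578 in untreated wild type cells. With median centring the rise in staggerer cells was 0.48 (adjusted p = 0.0319), and without between-array normalization it was 0.32 (adjusted p = 0.178).

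Between the genotypes, 1 of the 7 genes was higher in staggerer than in wild type cells without treatment (Ccn5) and 0 were lower, where 6.68% of all genes were higher, 6.27% lower and 13% changed in either direction. With doxorubicin, 2 were higher in staggerer cells (Ccn5 and Crim1) and 4 lower (Ccn1, Ccn2, Amotl2 and Axl), where 32.5% of all genes were higher, 40% lower and 72.5% changed. The median over the 7 genes was 0.22 untreated and -0.64 with doxorubicin, beside -0.01 and -0.14 over all genes. In the interaction, 2 genes were positive (Ccn5 and Crim1) and 3 negative (Ccn1, Ccn2 and Amotl2), where 26.6% of all genes were positive and 32.6% negative. The 5 comparisons share arrays, so a gene's values in them are not independent of each other. Quantile normalization bears on these counts because the whole arrays shifted. The median change of all genes with doxorubicin was 0.02 in staggerer cells under quantile normalization, -0.40 under median centring and -0.56 without normalization, and in wild type cells it was -0.09, -0.24 and -0.35 in the same order. Ccn1, Ccn2, Ccn5, Ankrd1 and Amotl2 fell in both genotypes under all 5 scalings tried, in tests against no change. A fall relative to the shift of all genes was not tested. The value closest to that shift was Ccn5 in staggerer cells, at -0.89 under median centring and -1.05 without normalization.

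**Figure D4:**
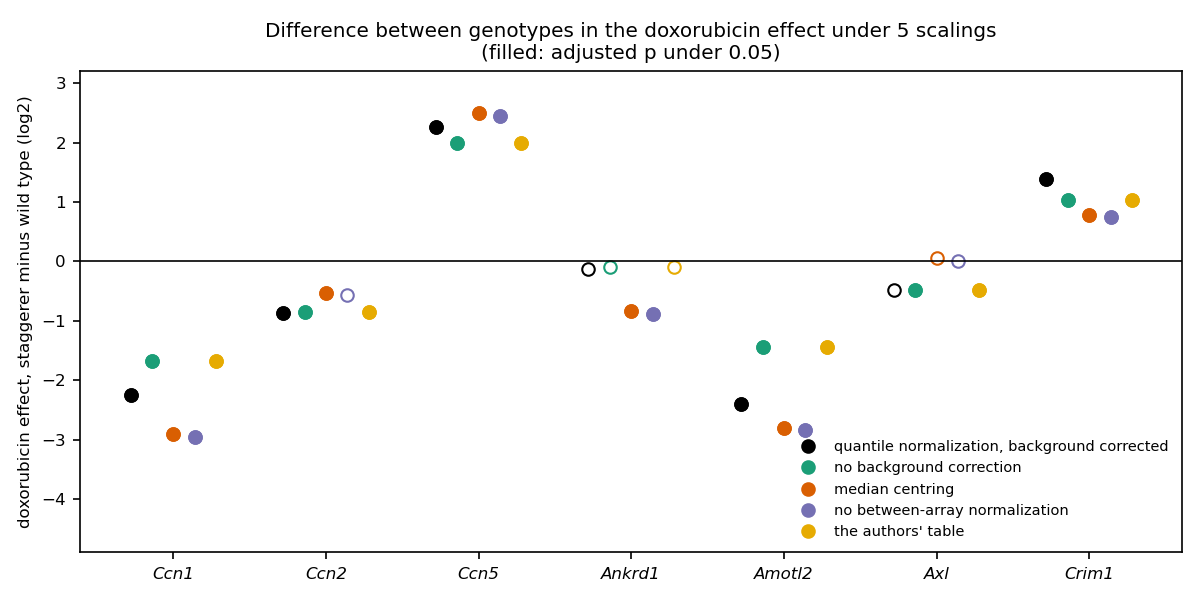
Doxorubicin effect in staggerer minus that in wild type (log2) for the 7 tested genes under 5 ways of scaling the arrays; filled points have an adjusted p under 0.05. Ccn1 and Amotl2 stay negative and Ccn5 positive under all 5, while Ankrd1 is called under median centring (-0.84) and without between-array normalization (-0.88) alone.

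Other genes of the pathway moved in both directions. In a list of 15 further YAP/TAZ signature genes, 10 could be tested. In staggerer cells 4 rose and 5 fell with doxorubicin (median -0.26, with 0.02 over all genes), and in wild type cells 3 rose and 3 fell (median 0.03, with -0.09 over all genes). Of all genes, 31.8% rose and 33.3% fell in staggerer cells, and 26.4% rose and 30.5% fell in wild type cells. The interaction was called for 8 of the 10, where 59.2% of all genes were called. Rbms3, which encodes an RNA-binding protein, rose in staggerer cells (0.71, adjusted p = 0.00202) and fell in wild type cells (-2.69, adjusted p = 6.75e-06). Nt5e, which encodes the ecto-5'-nucleotidase CD73, likewise rose in staggerer cells (1.02, adjusted p = 0.000297) and fell in wild type cells (-1.32, adjusted p = 0.000107). Ptpn14, a phosphatase that binds and restrains YAP, fell in staggerer cells (-1.44, adjusted p = 0.00012) and rose in wild type cells (0.82, adjusted p = 0.00217). Its level in treated staggerer cells was 6.88 and 6.73, above background on 1 of the 2 arrays. Fjx1, counted among the 5 that fell in staggerer cells, was below background on both treated arrays there, a fall of at least 2-fold. Nuak2, a kinase of the AMPK family, fell in staggerer cells (-1.52, adjusted p = 3.42e-05) and did not pass in wild type cells (0.13, adjusted p = 0.356). Under median centring the counts in staggerer cells were 2 higher and 5 lower, and without normalization 0 higher and 5 lower.

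Yap1 itself did not pass in either genotype, with changes of -0.01 (adjusted p = 0.974) in staggerer cells and -0.11 (adjusted p = 0.57) in wild type cells. Wwtr1, the gene of TAZ, gave -0.04 (adjusted p = 0.876) in staggerer cells and 0.56 (adjusted p = 0.0535) in wild type cells. A second, dimmer Wwtr1 probe gave -0.26 (adjusted p = 0.293) in staggerer cells and passed in wild type cells (0.66, adjusted p = 0.0257). The Wwtr1 interaction was -0.60 (adjusted p = 0.119) on the brighter probe and -0.92 (adjusted p = 0.0262) on the dimmer, so both calls depend on the probe. Of the 6 tested coactivator and TEAD genes, 1 rose and 3 fell in staggerer cells, where 31.8% of all genes rose and 33.3% fell. In wild type cells 0 rose and 1 fell, where 26.4% of all genes rose and 30.5% fell. Tead4 fell at least 1.77-fold in staggerer cells (fitted -1.32, adjusted p = 0.000252). In wild type cells Tead4 did not pass (-0.14, adjusted p = 0.464). Tead2 rose in staggerer cells (0.35, adjusted p = 0.0456) and fell in wild type cells (-1.28, adjusted p = 0.00015). Vgll4, a cofactor that competes with YAP for TEAD factors, was at 7.15 and 5.74 in treated staggerer cells, the second below background, and at 8.12 and 8.26 in untreated ones. Its fitted fall there was -1.74 (adjusted p = 0.00941), but -2.45 without the first and -1.04 without the second treated staggerer array. It gave 0.71 (adjusted p = 0.203) in wild type cells, called without either treated staggerer array (adjusted p = 0.0368). Tead3, the remaining gene counted as lower in staggerer cells (fitted -0.64, adjusted p = 0.017), was above background in untreated staggerer cells alone. Its bound in treated cells lies above its untreated level, so no fall can be stated. Under median centring or without normalization these counts became 0 higher and 5 lower in staggerer cells, so the rise of Tead2 there was not kept. It was also lost on leaving out any array but the second treated staggerer one. Wwtr1 was called in wild type cells without the second treated wild type array (0.89, adjusted p = 0.00606) or either treated staggerer array. In staggerer cells Tead2 gave 0.24 and Tead3 -0.52 without the first treated staggerer array, and 0.37 and -0.55 without the second untreated staggerer array. In wild type cells 2 rose and 1 fell when either treated staggerer array was left out or no background was corrected, and 1 rose and 1 fell without the second treated wild type array.

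Among 11 tested Hippo kinases and regulators, 2 rose and 7 fell in staggerer cells (median -0.69, or -0.58 with genes below background at their bound). In wild type cells 3 rose and 2 fell (median -0.12). Of all genes, 31.8% rose and 33.3% fell in staggerer cells, 26.4% rose and 30.5% fell in wild type cells, and 59.2% passed in the interaction. Fat4, counted as lower in wild type cells (fitted -0.73, adjusted p = 0.00547), was below background in both wild type groups, so no fall can be stated for it. Stk38l, a kinase related to LATS, fell at least 2.91-fold in staggerer cells (fitted -1.56, adjusted p = 0.000145). In wild type cells Stk38l rose (0.46, adjusted p = 0.0436). Stk4, the gene of the upstream kinase MST1, fell in staggerer cells (-0.56, adjusted p = 0.0234) and rose in wild type cells (1.07, adjusted p = 0.00145). Frmd6, a membrane-linked activator of the cascade, fell in staggerer cells (-1.84, adjusted p = 8.06e-05) and did not pass in wild type cells (-0.12, adjusted p = 0.564). Wwc1, the gene of the scaffold KIBRA, fell at least 1.5-fold in staggerer cells (fitted -1.03, adjusted p = 0.00228). In wild type cells Wwc1 gave 0.54 (adjusted p = 0.0457). A second, dimmer Wwc1 probe gave -0.43 in staggerer cells (adjusted p = 0.172). Under median centring the counts were 0 higher and 8 lower in staggerer cells and 1 higher and 4 lower in wild type cells, so the rises were not all kept. The rise of Stk38l in wild type cells was lost without either untreated staggerer, either treated wild type or the first untreated wild type array (0.27 to 0.58). That of Wwc1 was lost without either untreated staggerer or untreated wild type array or the second treated wild type array (0.37 to 0.61). The fall of Stk4 in staggerer cells was lost without the second treated or either untreated staggerer array (-0.62 to -0.33). The interaction was called for 9 of the 11, but for 5 without the second untreated staggerer array or the first untreated wild type array. In wild type cells the called genes numbered 3, not 5, without either untreated staggerer array, the second treated wild type array or the first untreated wild type array.

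Among 8 tested receptors of CCN proteins, 5 rose and 0 fell in staggerer cells (median 0.93), where 31.8% of all genes rose and 33.3% fell. In wild type cells 1 rose and 2 fell (median -0.08), where 26.4% of all genes rose and 30.5% fell. Lrp1, a scavenger receptor that binds CCN1 and CCN2, rose in staggerer cells (1.61, adjusted p = 0.000155) and fell in wild type cells (-0.72, adjusted p = 0.00876). The integrin subunit gene Itgav rose in staggerer cells (1.48, adjusted p = 5.64e-05) and gave 0.19 in wild type cells (adjusted p = 0.237), and the proteoglycan gene Sdc4 rose in staggerer cells (1.16, adjusted p = 0.000858) and gave -0.02 in wild type cells (adjusted p = 0.948). Itga5, a subunit of the fibronectin receptor, gave -0.29 in staggerer cells (adjusted p = 0.14) and fell in wild type cells (-1.27, adjusted p = 0.00038). The fall of Lrp1 in wild type cells was lost without the first treated (-0.50, adjusted p = 0.0537) or second untreated wild type array (-0.65, adjusted p = 0.0559), and Itga5 was called in staggerer cells without the first treated staggerer array (-0.49, adjusted p = 0.0192). Under median centring the receptor counts in staggerer cells were 4 higher and 1 lower. Fibroblast markers moved beside them, with 4 of 10 higher and 3 lower in staggerer cells and 0 higher and 7 lower in wild type cells. The part of that in the receptor counts was not tested.

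SRF with its actin-regulated cofactors MRTF also drives Ccn1, Ccn2 and Ankrd1. Of 12 tested SRF and MRTF targets, 1 rose and 4 fell in staggerer cells (median -0.17) and 0 rose and 7 fell in wild type cells (median -0.49). Of all genes, 31.8% rose and 33.3% fell in staggerer cells, 26.4% rose and 30.5% fell in wild type cells, and 59.2% passed in the interaction. Cnn2, the gene of calponin 2, rose in staggerer cells (1.08, adjusted p = 0.01) and fell in wild type cells (-1.53, adjusted p = 0.00232). On its brighter probe Srf fell in staggerer cells (-0.81, adjusted p = 0.00182) and gave 0.13 in wild type cells (adjusted p = 0.486). A dimmer Srf probe, above background on 4 arrays, gave -0.43 in staggerer cells (adjusted p = 0.104) and 0.34 in wild type cells (adjusted p = 0.21). Mical2, an actin oxidase that promotes MRTF activity, fell at least 4.1-fold in staggerer cells (fitted -2.87, adjusted p = 0.000202). In wild type cells Mical2 gave -0.51 (adjusted p = 0.214). The value of the tropomyosin gene Tpm2 in staggerer cells depends on the probe, at 0.29 (adjusted p = 0.114) on the brighter and 1.74 (adjusted p = 9e-05) on the dimmer, and on the brighter it fell in wild type cells (-0.58, adjusted p = 0.0105). Under median centring the counts were 3 higher and 4 lower in staggerer cells (median 0.15, of the opposite sign) and 0 higher and 9 lower in wild type cells. Without the first untreated staggerer array the rise of Cnn2 there was lost (0.81, adjusted p = 0.0704), and without the first untreated wild type array the fall of Tpm2 in wild type cells (-0.46, adjusted p = 0.0753). Mical2 was called in wild type cells without either treated staggerer array (adjusted p = 0.0309). The interaction was called for 4 of the 12, but for 10 under median centring.

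**Figure D5:**
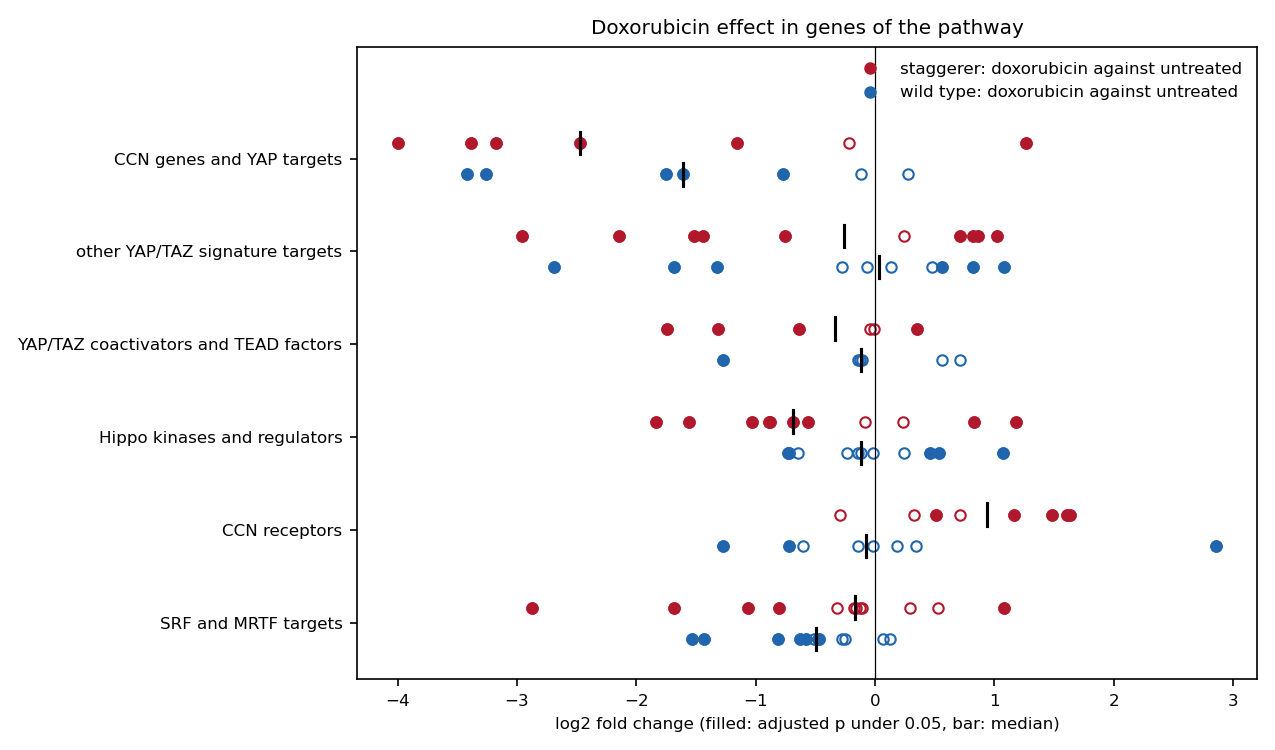
Log2 fold change of doxorubicin against untreated cells for each tested gene of the CCN and YAP target group and of 5 related lists, in staggerer (upper line of each pair) and wild type (lower line); filled points have an adjusted p under 0.05 and bars are list medians. The 7 CCN and YAP target genes have medians of -2.47 in staggerer and -1.61 in wild type, and the medians of the other lists lie between -0.69 and 0.93.

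The genes whose level followed Ccn1, Ccn2, Ccn5 and Ankrd1 most closely over the 8 arrays were found by Pearson's r over all tested genes, which describes arrays that share 4 groups and carries no test. Ccn1 was most like Cyb561d1 (r = 0.996), Klf6 (0.995) and Zfp12 (0.995). Cyb561d1 averaged 5.38 in treated staggerer cells, where the lowest signals above background averaged 6.77. Ccn2 was most like Prmt2 (0.995), Arfgap3 (0.994) and Orc5 (0.994). Ccn5 was most like Stat5a (0.995), Syt11 (0.994) and Fbxw17 (0.99), and Ankrd1 most like Dusp11 (0.999), Mlst8 (0.996) and Timm44 (0.995). Klf6, a zinc finger transcription factor gene, averaged 10.39 in staggerer cells with doxorubicin, 13.43 in untreated staggerer cells, 11.92 in wild type cells with doxorubicin and 13.43 in untreated wild type cells, the same order of the treated groups as Ccn1. Stat5a averaged 8.09, 8.72, 6.00 and 7.77 in that order, with the lowest level in treated wild type cells as for Ccn5. Among the members, Ccn1 and Ccn2 had r = 0.970, Ccn1 and Amotl2 0.968, and Ccn2 and Ankrd1 0.978. Ccn5 had 0.279 with Ccn1 and 0.081 with Amotl2, and Crim1 had -0.879 with Amotl2.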

How the data were processed

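Total RNA (RNeasy column, Bioanalyser check, Cy3 label, per the labels' protocols) was hybridised to 1-colour Illumina bead arrays. A deposited table gives the linear intensity of 25697 probes and 1124 control rows and lacks detection p-values. The authors' other table is on the log2 scale and matches a quantile normalization of the logged intensities without background correction (largest difference 5.1e-09). Scanner software is not given in the sources used here.

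From the intensities, limma 3.58.1 in R 4.3.3 corrected background with the control rows (nec, offset 16, 1114 rows taken as negative after 10 bright ones were left out, since their type is not given), then quantile normalized. A probe was above background where fewer than 1 in 100 control rows reached its signal (p under 0.01), and those so on at least 2 of 8 arrays were kept (12362), the brightest per gene (9340 entries, 715 unnamed). The fit had 1 mean for each of the 4 groups over all 8 arrays (lmFit, eBayes, 4 residual and 3.44 prior degrees of freedom), 5 two-sided contrasts and Benjamini-Hochberg adjustment over all entries at 0.05. Adjusted p-values are from limma, and counts of called genes use them. The number of arrays limits the precision. Same-numbered arrays did not deviate together (correlations -0.033 to 0.026 over 6 pairs), so the main fit used no pairing. These correlations cannot show whether the samples were paired in the experiment. The fit was tested on simulated data.

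The genes and lists were chosen with earlier results of these data known. All 10 members were named, and from each list up to 4 genes with the smallest interaction p, with Yap1, Wwtr1, the TEAD genes, the other CCN genes and Rora. Symbols come from the platform annotation, matched through Entrez identifiers to RefSeq (23962 probes). Alternatives were no background correction, the authors' table, median centring, no between-array normalization, other probe filters, the mean of a gene's probes or every probe, a variance trend with robust fitting, the replicate number as a block, a minimum fold of 1.5, a fit to only the 4 arrays compared, and leaving out each array. Counts of the lists under the scalings, and these counts and the named list genes without each array, were added after seeing the data.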

Additional observations from a re-analysis of the deposited data

Results flagged for a closer look

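The following genes had a doxorubicin effect that differed between staggerer and wild type cells in the test of the difference itself (limma interaction, adjusted p under 0.05), which 59.2% of all genes also did. The values are log2 effects in staggerer minus those in wild type. Among the CCN genes and YAP targets they were -2.25 for Ccn1, -0.87 for Ccn2, 2.26 for Ccn5, -2.40 for Amotl2 and 1.38 for Crim1. Among further YAP/TAZ signature genes they were 3.40 for Rbms3, 2.34 for Nt5e, -2.26 for Ptpn14 and -1.65 for Nuak2. For the cofactors of TEAD and the TEAD genes they were 1.63 for Tead2, -1.17 for Tead4 and -2.46 for Vgll4. For Hippo kinases and regulators they were -1.63 for Stk4, -2.02 for Stk38l, -1.57 for Wwc1 and -1.72 for Frmd6. Over all 11 tested Hippo genes, 3 were called positive and 6 negative, where 26.6% of all genes were positive and 32.6% negative. For CCN receptors they were 2.33 for Lrp1, 1.29 for Itgav, 1.18 for Sdc4 and 0.98 for Itga5. Over all 8 tested receptors, 5 were called positive and 1 negative (Itga6, -1.22, adjusted p = 0.0361). For SRF and MRTF targets they were -0.93 for Srf, 2.61 for Cnn2, 0.87 for Tpm2 and -2.36 for Mical2.

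Of the fibroblast markers, Dcn gave 1.49 and Lum 1.77. Amotl2, Tead4, Stk38l, Wwc1 and Mical2 were below background on both arrays of treated staggerer cells, so their differences are fitted values. Ptpn14 and Vgll4 were each below background on 1 of these arrays. The difference of Vgll4 was -3.16 without the first and -1.75 without the second treated staggerer array.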

How the results depend on the processing

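Of 653 member values recomputed under an alternative, 622 kept their direction and their side of the threshold, 13 gained a call, 4 lost one and 14 changed sign, none of these 14 called. With doxorubicin in staggerer cells Axl was 0.13 under median centring, and in wild type cells Axl was -0.034 without between-array normalization and Crim1 lay between -0.24 and 0.011 when arrays were left out in turn (0.011 without the second treated wild type array). In untreated cells, staggerer minus wild type, Ankrd1 was -0.084 and Crim1 -0.11 under median centring, and Ankrd1 -0.31, Crim1 -0.34 and Amotl2 -0.10 without normalization. Ankrd1 lay there between -0.081 and 0.084 when arrays were left out (-0.081 without the first untreated wild type array, -0.047 without the second untreated staggerer array). With the mean of a gene's probes Ankrd1 was 0.13 between treated genotypes and 0.036 in the interaction. The Axl interaction, -0.49 in the main fit, was 0.052 under median centring and 0.006 without normalization. It gained a call without background correction, in the authors' table, with detection on all 8 arrays and with the variance trend. Lost calls were Crim1 in treated staggerer cells (0.32) and between treated genotypes (0.40), and the Ccn2 interaction (-0.57), all without normalization, and Ccn2 between treated genotypes under median centring (-0.28). The cause was not tested.

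Genes called between untreated genotypes numbered 1210, but 2569 without normalization, and 520 to 1752 when arrays were left out in turn. They were 574 and 551 without the first or second untreated staggerer array, and 520 and 549 without the first or second untreated wild type array, where fewer arrays enter the fit. Members called there were 2, not 1, without normalization (Axl added), with the mean of a gene's probes (Ccn1 added) and with the variance trend (Axl added). Leaving out arrays gave 5 to 6 members called in the interaction, with Axl called at -0.66 without the first treated wild type array. It left the members called at 6 and 5 with doxorubicin in staggerer and wild type cells, and at 6 and 1 between treated and untreated genotypes.

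The share of called genes that were higher moved with the scaling. With doxorubicin in staggerer cells it was 48.8%, but 27.4% under median centring and 16.7% without normalization, and in wild type cells 46.4%, but 30.5% without normalization. Between treated genotypes it was 44.8%, then 30.3% and 20.1%, between untreated ones 51.6%, then 34.6% and 11.7%, and in the interaction 45%, then 32.2% and 28.5%. With the replicate number as a block the members called were 6 and 5 with doxorubicin in staggerer and wild type cells, and the genes called 5989 and 5173, against 6074 and 5317; the block changed no other call of a member. Values near background and near the top of the scale are the least certain.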
